A study of Mus musculus with 2 samples.

Results

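The myogenic transcription factors are a group of 9 regulators of muscle cell identity, namely *Myod1*, *Myf5*, *Myf6*, *Myog*, *Pax3*, *Pax7*, *Mef2a*, *Mef2c* and *Mef2d*. They are listed by name under a rule that uses no measured value, although the group was proposed with earlier results of these data known, and a peak was counted for a gene when its summit lay inside the gene's RefSeq span or at most 50 kb outside it. By this rule 34 distinct peaks out of 51356 in the authors' deposited list belonged to the 9 genes. The peaks come from chromatin immunoprecipitation with sequencing (ChIP-seq) in C2C12, an established mouse myoblast line that can be made to form muscle fibres in culture. All cells were 1 clone that carries a codon-altered MMH transgene under doxycycline control. MMH is a chimera of the homeodomains of mouse Dux, which contact DNA, and the carboxy-terminal part of human DUX4, which the antibodies recognise, so it stands in for Dux and is not the native protein. The antisera group was 1 library precipitated with the DUX4 antibodies MO488 and MO489, and the control group was 1 library precipitated with an antibody labelled anti-HA, although the series' design text names an antibody to GFP. Cells of both groups had 2 ug/ml doxycycline for 18 h, so no library without induction enters the peak list. After duplicate removal the peak caller used 26253175 fragments of the antisera library and 23412256 of the control library. With 1 library per group, differences carry no replicate check and no p-value, and intervals below are 95% Poisson intervals that cover counting error only. RNA was not measured in these libraries, so the identity of the cells could not be checked against marker genes.

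The regulators fall into small families of transcription factors that specify skeletal muscle. Pax3 and Pax7 are paired-box proteins that also carry a homeodomain and mark muscle progenitors and satellite cells. MyoD, Myf5, Mrf4 (the product of *Myf6*) and myogenin are basic helix-loop-helix (bHLH) proteins that bind the E box CANNTG and commit cells to the muscle lineage, with myogenin acting at differentiation. The MEF2 proteins are MADS-box factors that bind A/T-rich sites and act together with the bHLH factors on muscle genes. Dux and DUX4 belong to the same wide class of paired-type homeodomain proteins as Pax3 and Pax7, and the letters AATCA, read TGATT on the other strand, are a core of the known recognition sequences of Dux and DUX4.

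The sequences below show start regions with and without a peak at them, chosen after their values were seen and taken from RefSeq (GRCm38.p6, the assembly of mm10), with each AATCA or TGATT in capitals. The first is the plus strand at the start of *Myog* (chr1:134289712-134290011), read from the start window of the overlapping noncoding gene *Myoparr*, and contains the peak summit. The second is the start window of *Mef2d* (chr3:88142122-88142421, plus strand), of which the first 14 bases lay under a peak. The third is the second of 3 listed starts of *Mef2c* (chr13:83523406-83523705, plus strand), which ends before a peak. The last is that of *Myf5* (chr10:107486085-107486384, minus strand), with no peak at it.
Myog: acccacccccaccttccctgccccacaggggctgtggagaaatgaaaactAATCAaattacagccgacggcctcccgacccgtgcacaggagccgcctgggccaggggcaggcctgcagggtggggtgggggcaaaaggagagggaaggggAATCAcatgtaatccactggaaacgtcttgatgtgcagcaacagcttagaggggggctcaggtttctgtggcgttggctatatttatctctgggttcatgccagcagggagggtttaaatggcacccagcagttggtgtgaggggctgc
Mef2d: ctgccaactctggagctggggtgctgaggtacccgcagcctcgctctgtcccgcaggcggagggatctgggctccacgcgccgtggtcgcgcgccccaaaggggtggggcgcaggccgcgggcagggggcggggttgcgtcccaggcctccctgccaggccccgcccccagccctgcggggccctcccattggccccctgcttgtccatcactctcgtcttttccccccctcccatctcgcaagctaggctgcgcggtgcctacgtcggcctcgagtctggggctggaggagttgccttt
Mef2c: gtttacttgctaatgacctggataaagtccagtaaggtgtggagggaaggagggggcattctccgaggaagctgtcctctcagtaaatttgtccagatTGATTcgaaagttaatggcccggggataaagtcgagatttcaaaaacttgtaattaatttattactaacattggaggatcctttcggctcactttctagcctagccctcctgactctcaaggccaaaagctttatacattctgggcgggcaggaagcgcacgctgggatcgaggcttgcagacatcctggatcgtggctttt
Myf5: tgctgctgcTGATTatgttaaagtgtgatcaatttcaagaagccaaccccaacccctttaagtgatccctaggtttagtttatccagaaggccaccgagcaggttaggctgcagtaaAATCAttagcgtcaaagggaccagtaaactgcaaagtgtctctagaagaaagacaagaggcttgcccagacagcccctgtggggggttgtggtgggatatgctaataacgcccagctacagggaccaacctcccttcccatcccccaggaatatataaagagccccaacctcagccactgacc

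Among these sequences, *Myog* held the capitalised letters 2 times and *Mef2d* 0 times. The *Mef2c* window held them 1 time and the *Myf5* window 2 times. RefSeq start windows, which reach 250 bases before to 50 bases after the start, were at hand for 6 of the 9 genes, 8 windows in all, and AATCA on either strand was found in 5 of the 8. The longer form TAATCA was found in 2 of the 8, those of *Myog* and *Myf5*. Over all 32851 start windows AATCA on either strand was present in 37.0% and TAATCA in 7.97%, and over the 379 that contained a summit they were present in 79.7% and 21.9%. None of the 8 windows of the regulators is among the 379, since the *Myog* summit lies just outside the *Myog* window and inside that of *Myoparr*. Such matches describe letters and do not mark a bound site.

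A summit lay inside or within 50 kb of 8 of the 9 regulators, and *Myod1* was the exception. The same held for 81.3% of 21900 protein-coding genes, so having a peak at this distance is common and does not set the regulators apart. Within 5 kb of the span the count was 7 of 9, against 43.2% of coding genes, and inside the span it was 4 of 9, against 32.3%. These shares are not matched for length, and the median span was 30.2 kb for the regulators and 17.1 kb for all coding genes. The 4 with a summit inside, *Pax3*, *Pax7*, *Mef2a* and *Mef2c*, are the longest of the 9. Coding genes of like span had a median of 2 summits inside, or 3 for those like *Mef2c*. The 34 peaks had a median fold enrichment over local background of 11.6 (range 4.24 to 53.7), against 8.02 for the whole list. Fold enrichment was 20 or more at 8 of the 34, between 10 and 20 at 10, and under 10 at 16, where the whole list had 13.7%, 24.4% and 61.9% in these classes. Their density was 25.2 per Mb of merged window, against 19.6 per Mb in the windows of all coding genes. Both figures rest on *Mef2a* and *Mef2c*, which held 22 of the 34 peaks. Without these genes, an alternative added after the values were seen, the other 7 genes had 12 peaks with a median fold of 8.18 and a density of 14.3 per Mb, which lay below that of all coding genes.

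**Figure D1:**
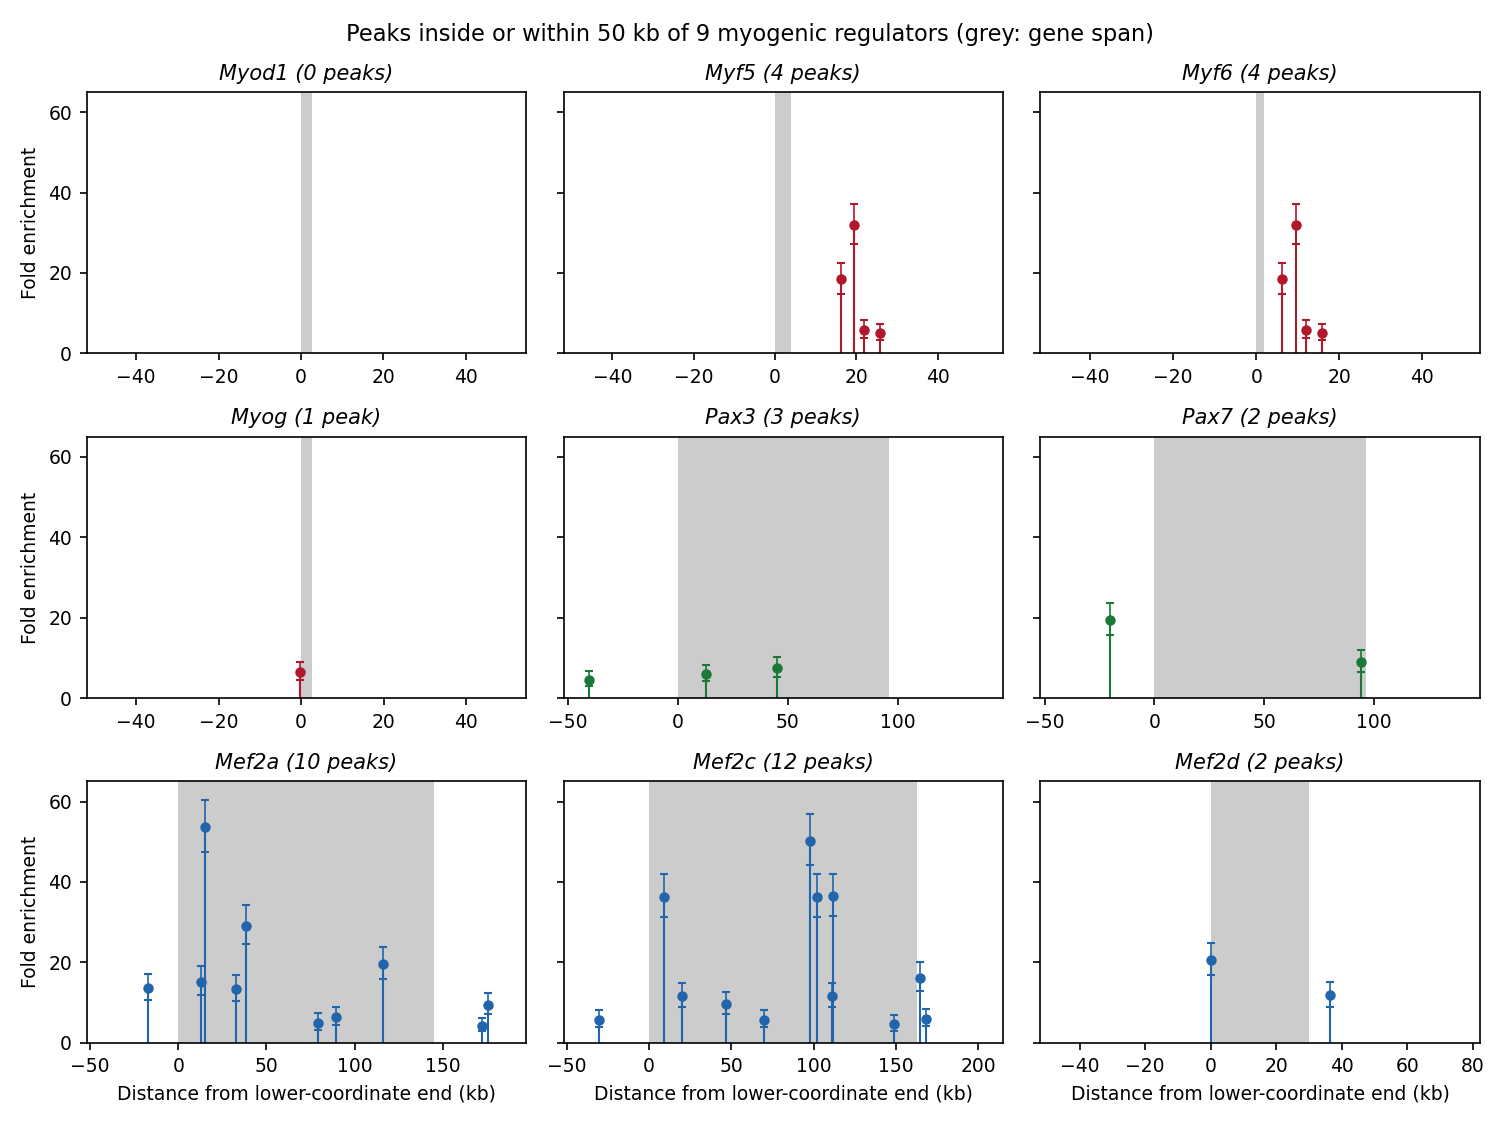
Fold enrichment over local background (vertical axis) of each peak against the distance of its summit from the lower-coordinate end of the gene in kb (horizontal axis), 1 panel per gene, with 95% Poisson intervals of the pileup as bars and the gene span in grey. *Mef2a* and *Mef2c* hold 10 and 12 peaks, the *Myf5* and *Myf6* panels show the same 4 peaks, and *Myod1* has 0.

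Among the bHLH genes, enrichment was highest on the far side of *Myf6*, low at the start of *Myog* and not called around *Myod1*. *Myod1*, which encodes the factor that can turn fibroblasts into muscle cells, spans chr7:46376474-46379092. Its nearest summit lay 55.1 kb away, with a pileup of 20 fragments and 4.19-fold enrichment, and is therefore not among the 34. It was the only one within 100 kb of the gene. Coding genes of like span (1.96 to 3.49 kb, 1262 genes) had a summit within 50 kb in 72.3% of cases. At the usual local background of 4.01 fragments the lowest pileup in the list was 13 fragments (2.79-fold), so weaker enrichment at *Myod1* could not be seen in this table.

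*Myf5* and *Myf6* are neighbours on chromosome 10, at 107482908 to 107486927 and 107492848 to 107494723, and *Myf5* is the earliest bHLH factor of the embryonic muscle lineage. All 4 of their peaks lay beyond *Myf6*, with 9.46 kb from the first summit to the last, so both genes share the same 4 peaks. *Myf5* is read from the minus strand, which puts the 4 summits 13.0 to 22.5 kb upstream of its listed start. The control regions of this locus are known to be spread over a long stretch upstream of both genes and into the neighbouring *Ptprq*.

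The strongest of the 4, at chr10:107502101-107503569, lay 7.70 kb outside *Myf6*, with a pileup of 159 fragments and 31.9-fold enrichment (interval 27.2 to 37.2). Only 5.49% of all peaks had that fold or more. It was also the widest peak of any regulator, at 1469 bp against a median of 483 bp for the 34 peaks and 430 bp for the whole list. The peak nearest to *Myf6*, at chr10:107498882-107499417, lay 4.42 kb outside it with 91 fragments and 18.4-fold enrichment (14.8 to 22.5). The other two had 28 and 24 fragments (5.78-fold and 4.99-fold), and their intervals lay entirely below those of the stronger pair. Both of these weak peaks were nearer to *Ptprq*, a receptor phosphatase of inner-ear hair cells, than to *Myf6*. The summits of all 4 fell inside the annotated long noncoding RNA (lncRNA) *Gm36177*, which starts beside *Myf6* and holds 8 summits in its 164 kb. Within 100 kb the list added 3 more peaks for *Myf6* and 5 more for *Myf5*.

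*Myog*, whose product myogenin drives the differentiation of committed myoblasts, had a single peak within 50 kb, and it lay at the start of the gene. The peak spanned chr1:134289577-134289942, with the summit 264 bp upstream of the start of *Myog*. Its pileup was 31 fragments and its fold enrichment 6.38 (4.40 to 8.98), and 66.5% of all peaks had that fold or more. The enrichment was thus below the middle of the list, and the next summit lay 56.2 kb from the gene. The summit also fell inside the lncRNA *Myoparr*, 21 bp from the end that faces *Myog*. *Myoparr* is known as a promoter-associated RNA of the *Myog* gene that is read in the opposite direction. Which of the starts the enrichment belongs to cannot be told apart, because 243 bp separate them.

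In the *Myog* sequence printed above, both AATCA matches lay under the peak. The nearer was centred 24 bp from the summit and 240 bp upstream of the *Myog* start, and it is part of TAATCA. The further one was centred 125 bp from the summit. An E box, CACATG, began inside that further match and also lay under the peak, while a second E box, CAGTTG, was centred 9 bp upstream of the start and lay outside it. CANNTG was present in 72.3% of all start windows, so its presence says little.

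Both *Pax* genes had a summit inside the gene, and neither had a peak among the strongest 10% of the list. *Pax3*, needed for the migration of muscle progenitors into the limb, spans chr1:78101267-78197136. Its 3 peaks had pileups of 22, 34 and 36 fragments in order of position, or 4.59-fold, 6.01-fold and 7.38-fold enrichment. All 3 lay below the list's median fold of 8.02, and their intervals overlapped. The strongest, at chr1:78146213-78146649 with 7.38-fold enrichment (5.23 to 10.1), lay 45.2 kb from the nearer end of the gene. The weakest, at chr1:78060524-78060814, lay 40.6 kb outside the gene. The middle one was the only peak at the *Pax* genes with a local background over the lowest value, at 4.83 fragments.

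*Pax7*, the marker of satellite cells, spans chr4:139737059-139833530 and had 2 peaks. The stronger, at chr4:139716407-139716864, lay 20.4 kb outside the end of the gene that is away from its start, with 96 fragments and 19.3-fold enrichment (15.7 to 23.6). The other, at chr4:139831259-139831704, lay inside the gene, 1480 bp downstream of the listed start, with 44 fragments and 8.98-fold enrichment (6.58 to 12.0). Their intervals did not overlap. Coding genes with spans like that of *Pax7* (1683 genes) had a median of 3 peaks, and 83.3% of them had at least 2. For *Pax3*, 66.4% of 1691 genes of like span had at least its 3 peaks. Peak numbers at both genes were at or below the median for their length. In 41.9% of the genes like *Pax7* and 85.5% of those like *Pax3*, the best peak had as high a fold or higher.

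Among other *Pax* genes, a list of 7, 6 had a summit within 50 kb, 5 had one within 5 kb and 2 had one in the span. For all coding genes the shares were 81.3%, 43.2% and 32.3% in the same order. The highest folds among the 7 were 19.3 at *Pax9*, which acts in tooth and thymus development, and 15.6 at *Pax1*, a gene of the sclerotome. *Pax8*, a thyroid and kidney regulator, was the only one of the 7 with none, its nearest summit lying 76.9 kb away.

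The *MEF2* genes held most of the peaks, and all but 1 of those in the strongest 10% of the list. Together they had 24 peaks with a median of 12.6-fold enrichment, against 7.38 for the 5 peaks of the *Pax* genes and 6.38 for the 5 of the bHLH genes. The 5 bHLH folds were 31.9, 18.4, 6.38, 5.78 and 4.99. Those of 5.78 and 4.99 were nearer to *Ptprq* than to any bHLH gene, and without them the bHLH median would lie above that of the *MEF2* genes. The order of the families thus depends on how peaks are assigned to genes. Peaks lay inside the *MEF2* genes at 47.3 per Mb, against 19.8 per Mb inside all coding genes. This density came from *Mef2a* (48.2 per Mb) and *Mef2c* (55.2 per Mb), and *Mef2d* had 0 peaks inside. Of the 34 peaks, 7 were in the strongest 10% of the list by the authors' −log10 p (20.6%). By construction this class holds 10% of all peaks, and 10.2% of those in the windows of coding genes fell in it. The 7 were 4 peaks of *Mef2c*, 2 of *Mef2a* and the widest peak beside *Myf6*.

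**Figure D2:**
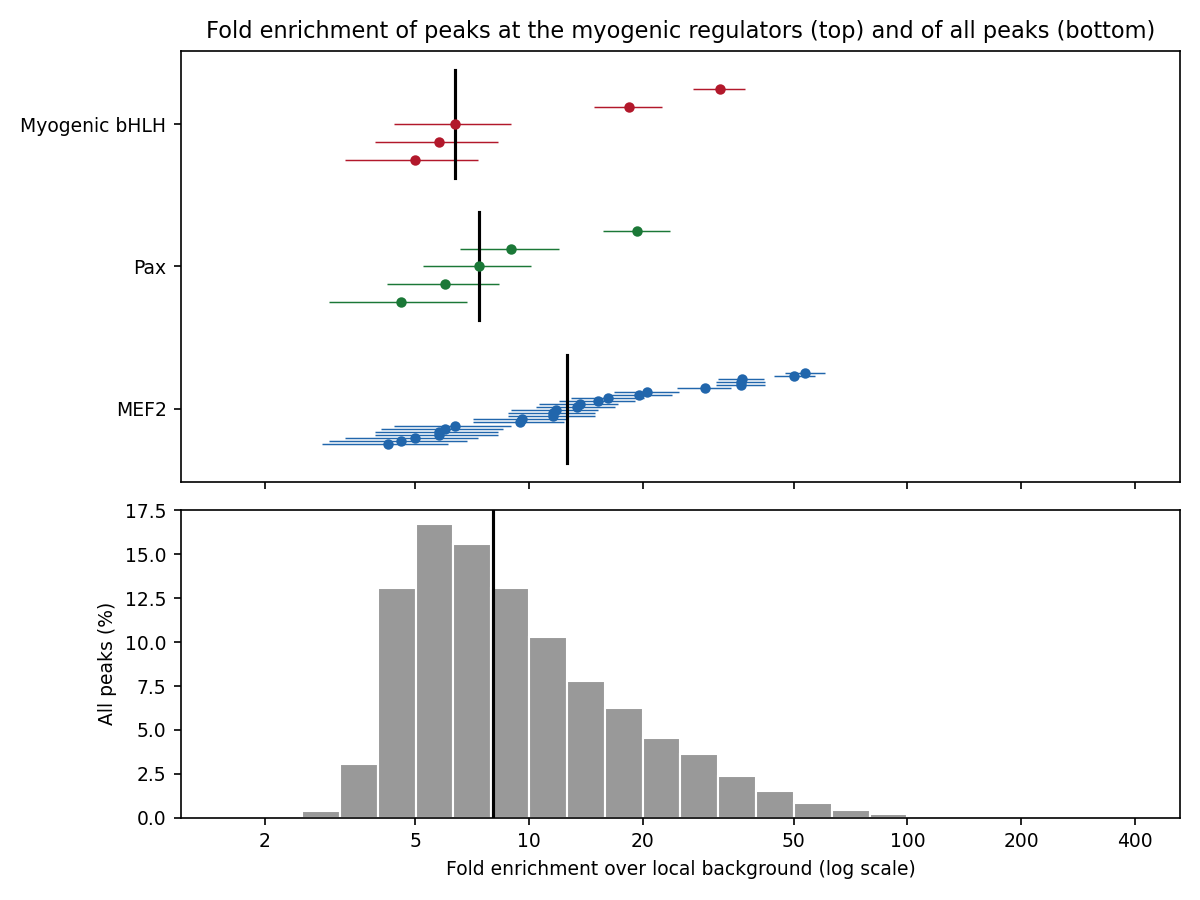
Fold enrichment (horizontal log axis) of the peaks of each family with 95% Poisson intervals, sorted within the family, and below it the share of all 51356 peaks in each class of fold. Black lines mark medians of 6.38 for the bHLH genes, 7.38 for the *Pax* genes, 12.6 for the *MEF2* genes and 8.02 for all peaks. The bHLH median rests on 5 peaks, of which those of 5.78-fold and 4.99-fold were nearer to *Ptprq*. The order of the families depends on whether they are counted.

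*Mef2a*, a MEF2 gene expressed in many tissues and prominent in muscle, spans 145 kb at chr7:67231163-67376456 and is read from the minus strand. Its 10 peaks had pileups from 24 to 268 fragments, and 7 of them lay inside the gene. The strongest peak of all the regulators, at chr7:67246045-67246775, lay inside *Mef2a*, 15.2 kb from its downstream end. It had 268 fragments and 53.7-fold enrichment (47.4 to 60.5), and 1.36% of all peaks had that fold or more. A second, at chr7:67268834-67270142, had 145 fragments and 29.1-fold enrichment (24.6 to 34.2). Between these lay a peak of 13.4-fold, and 2.33 kb from the strongest lay one of 15.2-fold, so that 4 peaks fell within 25.5 kb of the downstream part of the gene.

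The other 6 peaks of *Mef2a* had 4.24-fold to 19.5-fold enrichment. The 2 peaks in the middle of the gene had 24 and 31 fragments, or 4.99-fold and 6.38-fold enrichment. The peak nearest to its listed start, at chr7:67346813-67347335, was still 25.8 kb downstream of it, with 97 fragments and 19.5-fold enrichment (15.9 to 23.8). The 2 peaks upstream of the gene, 27.1 and 30.2 kb outside it, had 4.24-fold and 9.48-fold enrichment over local backgrounds of 5.61 and 4.49 fragments, both over the lowest value. The peak on the other side had 13.6-fold enrichment and was nearer to *Lysmd4* than to *Mef2a*. Among 1145 coding genes of like span (109 to 194 kb), the median was 5 peaks, and 9.0% had at least 10. A best fold as high as that of *Mef2a* was reached in 6.38% of them.

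*Mef2c*, needed for heart and skeletal muscle development, spans 163 kb at chr13:83504017-83667079 on the plus strand, with 3 listed starts. It had 12 peaks, the most of the 9 genes, with pileups from 22 to 251 fragments, and 9 of the 12 lay inside the gene. The strongest, at chr13:83601667-83602298, had 251 fragments and 50.3-fold enrichment (44.3 to 56.9). It opened a row of 4 peaks over 14.1 kb. The next was at chr13:83605618-83606318 with 181 fragments and 36.3-fold enrichment (31.2 to 42.0). The last, at chr13:83615819-83616408, had 199 fragments and 36.5-fold enrichment (31.6 to 41.9), with a weaker peak of 11.6-fold 1.15 kb before it. All 4 lay 28.4 to 42.5 kb downstream of the last listed start and inside the lncRNA *Gm52043*, which overlaps *Mef2c*.

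Another strong peak of *Mef2c*, at chr13:83512866-83513538, lay 9.24 kb downstream of the first listed start, with 181 fragments and 36.3-fold enrichment (31.2 to 42.0). The second and the third listed starts each had a peak close behind them. That at chr13:83523881-83524336, with 57 fragments and 11.6-fold enrichment (8.81 to 14.9), had its summit 422 bp downstream of the second start. That at chr13:83574023-83574391, with 28 fragments and 5.78-fold enrichment (3.91 to 8.27), had its summit 561 bp downstream of the third. Both intervals lay below those of the 4 strong peaks. Past the end of the gene, a peak 1.58 kb away had 80 fragments and 16.2-fold enrichment. The remaining 4 peaks of *Mef2c* ranged from 4.59-fold near its downstream end to 9.57-fold between the second and the third start. Of these only the 9.57-fold peak lay above the list's median fold of 8.02. Of 989 coding genes of like span, 6.57% had at least 12 peaks, the median was 5, and 9.4% had as high a best fold.

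*Mef2d*, a MEF2 gene with a muscle-specific splice form, spans 30.2 kb at chr3:88141941-88172091 and had 2 peaks, neither inside the gene. The stronger, at chr3:88141653-88142135, straddled the annotated beginning of the gene, with its summit 43 bp outside the span and 474 bp upstream of the listed start. Its pileup was 102 fragments and its fold enrichment 20.5 (16.8 to 24.9), against 6.38 (4.40 to 8.98) at the start of *Myog*, and the intervals did not overlap. The other peak lay 6.33 kb past the other end, with 58 fragments and 11.8-fold enrichment (8.98 to 15.2). The 14 bases of the printed *Mef2d* window that lay under the peak are too few to describe its sequence.

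**Figure D3:**
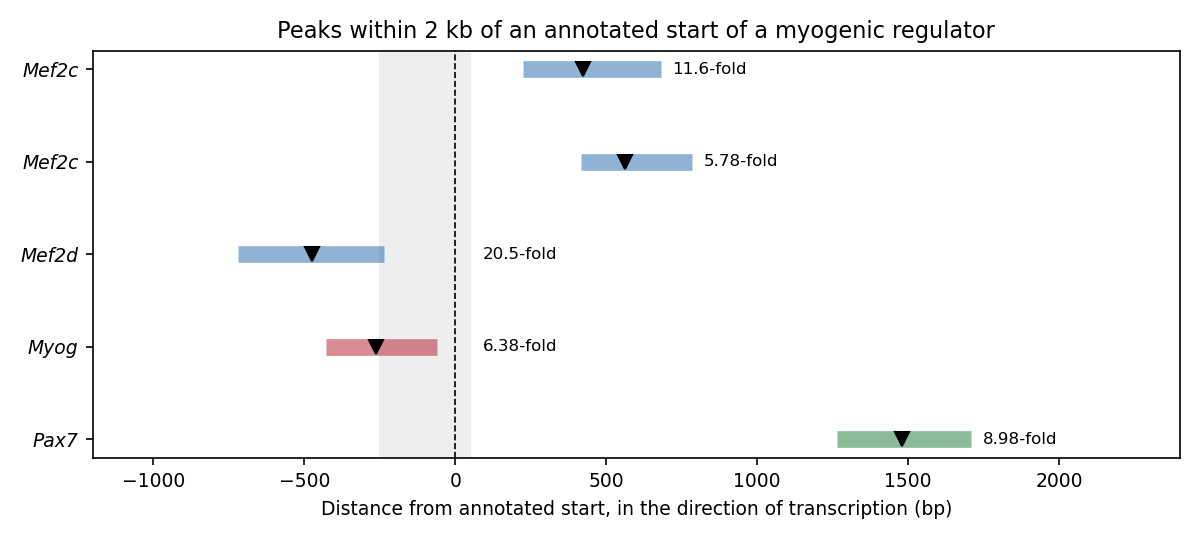
Position of the 5 peaks whose summits (triangles) lay within 2 kb of a listed start, in bp from that start in the direction of transcription (horizontal axis), with the peak intervals as bars and the start window in grey. The *Myog* and *Mef2d* summits lie upstream of the start, and those of *Mef2c* and *Pax7* lie downstream.

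Across the regulators, the number of peaks followed the length of the gene in part. *Mef2a* and *Mef2c*, the longest, had the most. *Pax3* and *Pax7*, at 95.9 and 96.5 kb, had 3 and 2, while *Myf5* and *Myf6*, at 4.02 and 1.88 kb, shared 4. At least 4 peaks were found for 13.6% of coding genes with spans like that of *Myf5* and for 14.7% of those like *Myf6*. *Mef2d* equalled the median of 2 for its length, and *Myog* that of 1.

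**Figure D4:**
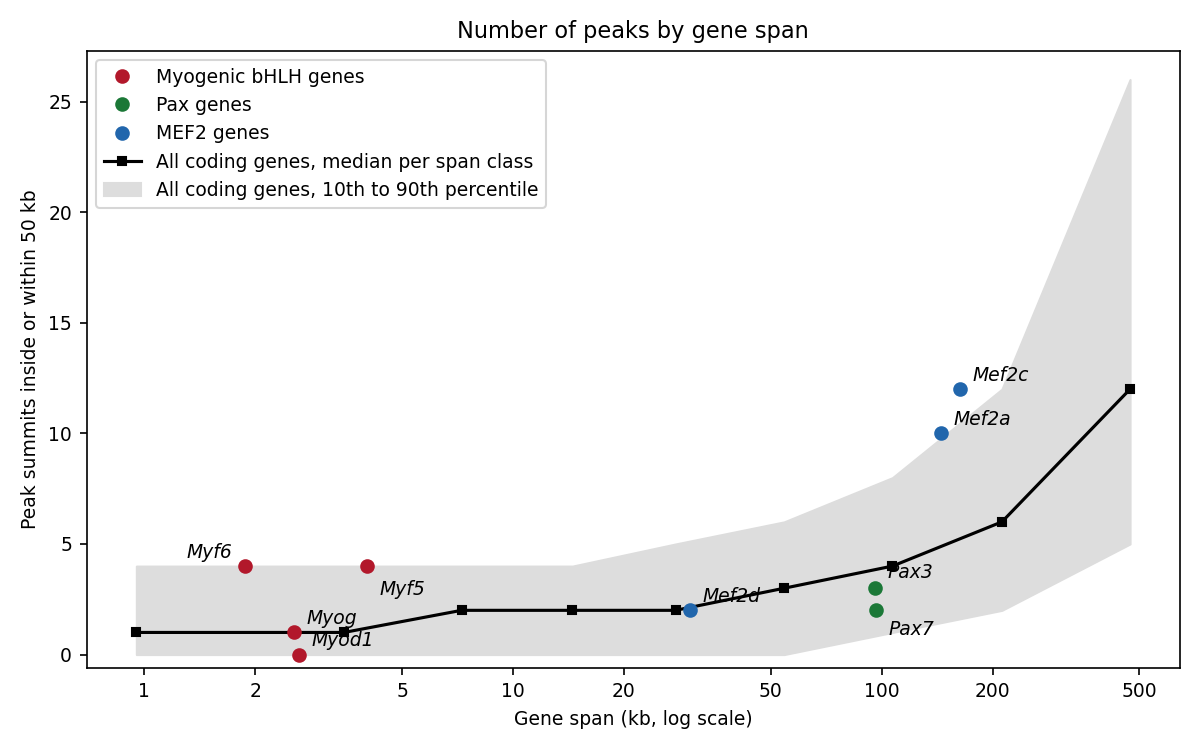
Number of summits inside or within 50 kb (vertical axis) against gene span in kb (horizontal log axis) for the 9 regulators, coloured by family, with the median (squares) and the 10th to 90th percentile (grey) of all 21900 coding genes in classes of span. *Mef2a* and *Mef2c*, with 10 and 12 peaks, sit above the line of medians. *Pax3* and *Pax7*, with 3 and 2, lie below the median of 4 in their class of 80 to 160 kb, while among genes of like span, a narrower range, the median was 3, which *Pax3* equalled.

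For 31 of the 34 peaks a regulator was also the nearest coding gene. The local background was at the lowest value of the list, 4.01 fragments, in 30 of the 34. It was higher in 11.8% of these peaks, against 22.0% of the whole list, and the highest was 5.61 fragments, so for these 30 peaks the order of the folds is the order of the antisera pileups. The outermost summits inside the 50 kb limit lay 40.6 kb from *Pax3* (4.59-fold) and 30.6 kb from *Mef2c* (5.78-fold). The first beyond it lay 53.0 kb from *Mef2c* (4.79-fold), 54.6 kb from *Myf6* (6.18-fold) and 56.2 kb from *Myog* (16.0-fold). The last of these had a higher fold than the *Myog* peak inside the limit.

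Other genes of the muscle regulatory network were read from a list of 77 partners, repressors and effectors. A summit lay within 50 kb of 64 of the 77 (83.1%), within 5 kb of 39 (50.6%) and inside 31 (40.3%), close to the shares of all coding genes at 50 kb and somewhat above them at 5 kb. The best peaks of the 8 regulators with a peak had a median of 26.2-fold enrichment, against 19.0 for these genes and 14.2 for all coding genes. These medians are not matched for length, and the median spans of the lists were 30.2, 25.5 and 17.1 kb. The median best fold was 11.2 for coding genes with spans like that of *Myog* and 19.5 for those like *Mef2c*. The 26.2 counts the strongest peak of *Myf5* and *Myf6* for both genes, and with each peak given to its nearest coding gene it was 20.5. In the group of MEF2 partners and repressors 10 of 12 genes (83.3%) had a summit within 50 kb, against 81.3% of all coding genes. The highest folds were 63.0 at *Hdac9*, a class II histone deacetylase that binds and represses MEF2 proteins, and 62.6 at *Mrtfb*, a coactivator of serum response factor. *Hdac9* had 22 summits in a span of 870 kb, and *Mrtfb* spans 161 kb. Coding genes over 320 kb, with a median span of 472 kb, had a median of 12 summits inside or within 50 kb and a 90th percentile of 26. *Mef2b*, the MEF2 gene outside the 9, had none, with the nearest summit 59.8 kb away.

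Developmental regulators that act upstream of the bHLH factors, the *Eya* and *Dach* genes among them, formed a further group. Of these, 9 of 10 had a summit within 50 kb, against 81.3% of all coding genes. This comparison is not matched for length, as the median span was 114 kb in this group and 17.1 kb for all coding genes. The highest fold of this group was 48.9, at *Eya4*, a transcriptional coactivator. A group of bHLH partners and inhibitors holds E-protein, Id, Twist, Hes and Hey genes with *Msc* and *Tcf21*. It counted 13 of 14 (92.9%), and *Tcf21* was the one with none. The highest values were at E-protein genes, with 60.6-fold at *Tcf4* and 53.1-fold at *Tcf3*, while the 4 Id genes had summits within 50 kb but none within 5 kb. This contrast is not matched for length, as *Tcf4* spans 345 kb, *Tcf3* 24.4 kb and the Id genes 1.16 to 4.91 kb. Other muscle regulators counted 17 of 20 (85.0%), led by *Zeb1*, a zinc-finger repressor, at 80.8-fold and *Hmga2*, a chromatin protein of proliferating myoblasts, at 40.9-fold. The fusion and growth genes counted 9 of 14 (64.3%), below the share of all coding genes. They were led by *Megf10*, a satellite cell receptor, at 52.9-fold and *Met*, the receptor for hepatocyte growth factor, at 43.7-fold. The folds named for these groups are the highest inside or within 50 kb of each gene and are not matched for length. *Eya4* spans 248 kb, *Zeb1* 184 kb, *Megf10* 164 kb, *Hmga2* 115 kb and *Met* 111 kb. *Mymk*, which encodes the fusion protein myomaker, had no summit within 50 kb, the nearest lying 57.2 kb away. *Mymx*, of the same group, had 2 within 50 kb, the nearest 2.9 kb away, with a best fold of 7.18.

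**Figure D5:**
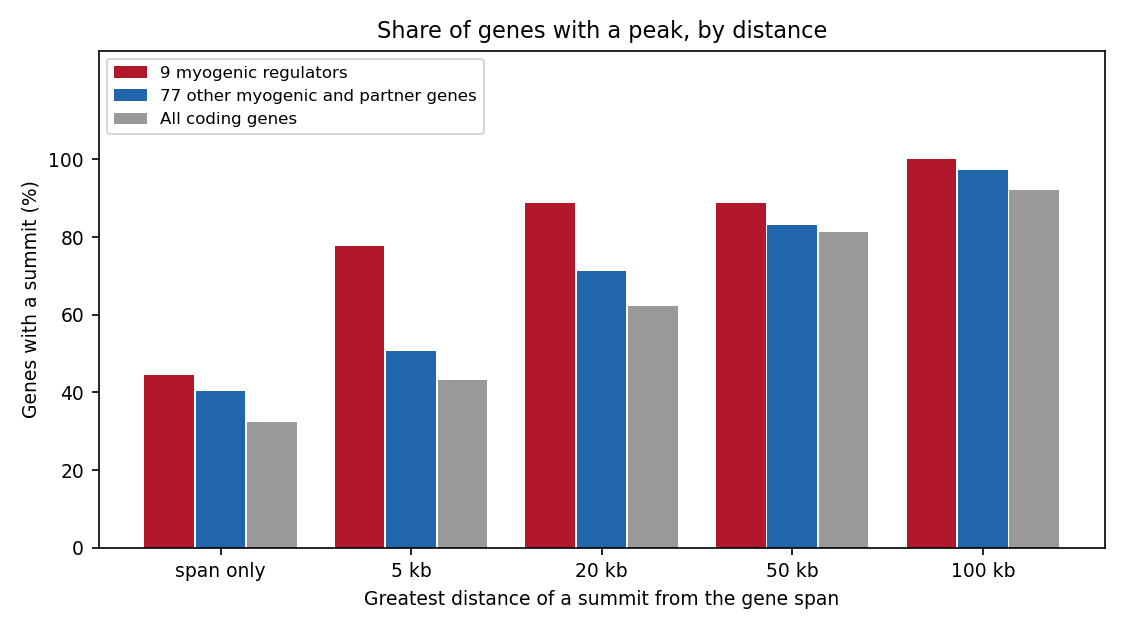
Share of genes with at least 1 summit (vertical axis, %) by the greatest distance allowed from the gene span (horizontal axis) for the 9 regulators, the 77 other genes of the network and all coding genes. At 50 kb the shares are 88.9%, 83.1% and 81.3%, and at 5 kb they are 77.8%, 50.6% and 43.2%. The shares are not matched for gene length, and the median spans are 30.2, 25.5 and 17.1 kb.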

How the data were processed

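ChIP-seq libraries came from 1 antisera and 1 control immunoprecipitation of the same induced C2C12 clone, grouped by the antibody label. The submitters' processing notes name BWA, MACS2 and mm10. Per the file headers, MACS version 2.1.0.20151222 called peaks on paired-end fragments at a q-value of 0.01 with 1 fragment kept per position. The read mapping is named without settings. The deposited pileup is, per the file headers, a signal (antisera fragments at the summit), the deposited fold is its ratio to local background with 1 added to each, and −log10 of p-value and q-value are the authors'. These are the authors' own values per peak, used only to describe and rank peaks within the list.

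Local background was recovered from pileup and fold, and recomputed Poisson p matched within 1% for 100% of peaks with a finite value. Summits were assigned to RefSeq spans (GRCm38.p6, 49980 genes, 21900 coding) with Python 3.11.15, and all 86 listed names matched by symbol. The assignment was tested on planted positions. Like span means 0.75 times the gene's span up to that span divided by 0.75. The members and lists were chosen with earlier results of these data known. All 9 members are named, with their strongest peak and the one nearest the start; of each other group, the 2 genes of highest fold, apart from 1 gene that is not reported here. *Pax8*, *Mef2b*, the Id genes, *Mymk* and *Mymx* were picked after seeing their values. Protein sequences were not used here. The alternatives tried were other distances, stricter lists, 1 bp of overlap, nearest-gene assignment, floor background and no pseudocount.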

Additional observations from a re-analysis of the deposited data

How the results depend on the processing

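The count of 34 peaks was 23 within 5 kb and 29 within 20 kb, and it stayed between 29 and 34 with the stricter q-values, 1 bp of overlap, the nearest coding gene only and peaks at the lowest local background. It became 19 in the gene span alone, 62 within 100 kb, 7 in the strongest 10% of peaks and 12 without *Mef2a* and *Mef2c*, since each of these changes the area, the list or the genes counted. Of the 9 regulators, 8 had a peak within 50 kb, but 4 in the span alone and 4 in the strongest 10%. Those in the strongest 10% were *Mef2a*, *Mef2c*, *Myf5* and *Myf6*, and the same peak was counted for *Myf5* and *Myf6*. With the nearest coding gene only, 7 regulators had a peak, because *Myf5* lost all 4 of its peaks to *Myf6* and *Ptprq*. *Myf5* had 0 within 5 kb as well. The 77 other genes gave 64 with a peak, against 31 in the span alone, 39 within 5 kb and 24 in the strongest 10%. Among all coding genes the shares were 81.3% within 50 kb, 32.3% in the span alone and 43.2% within 5 kb. Their share with a peak in the strongest 10% is not given here, so the counts in that class have no comparison. The median best fold of the regulators was 26.2, and 18.4 to 32.5 under the alternatives run. *Myf6* fell to 18.4-fold within 5 kb and *Pax7* to 8.98-fold within 5 or 20 kb, and within 100 kb *Pax3* reached 22.1-fold and *Myog* 16.6-fold. No paired analysis was possible because each group is 1 library. The depth of 1 antisera and 1 control library limits all values, and enrichment under the calling threshold was not detectable.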
